A study of Homo sapiens with 6 samples.

Results

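The zinc finger genes of chromosome 19 were examined in MDAMB468, a cell line from a human breast cancer of the triple negative type (low or absent hormone receptors and ERBB2), with and without overexpression of IGFBP2. The set was chosen with earlier results of these data known. Position and name define it: protein-coding genes of chromosome 19 in GENCODE 44 whose symbol begins with ZNF or ZFP and a digit. Of 254 such genes, 153 were among the 10487 genes of the deposited expression table, and the other 101 were not analysed here. Transcripts were sequenced at their 3′ ends in 3 control replicates, given as wild type and untreated, and in 3 untreated replicates labelled IGFBP2 overexpression. The latter, MDAMB468-VHP-IGFBP2, received by lentivirus a Cas9 without cutting activity that is joined to activators of transcription, under blasticidin selection, and then a guide RNA directed to IGFBP2, and fluorescent cells were sorted. Whether the control cells carried the activator is not stated in the sources used here, so effects of the activator, the selection and the sort cannot be told apart from those of IGFBP2. Expression is given in CPM, a gene's reads relative to the size of its library as normalized by the authors, and every log2 fold change is overexpression minus control on the log2(CPM + 1) scale, which understates changes of low genes.

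Most of these genes encode C2H2 zinc finger proteins, in which each finger folds around a zinc ion held by a pair of cysteines and a pair of histidines and contacts DNA bases. Many carry a KRAB domain at the other end of the protein, which recruits the co-repressor TRIM28 and, through it, the histone H3 lysine 9 methyltransferase SETDB1. The family grew by tandem duplication and lies in clusters along chromosome 19, and many of its members silence retrotransposons. A repeat of the finger is what makes these genes alike, so 1 finger of each of 4 genes is shown, read from the GRCh38 genome in the direction of the gene, with the codons of the zinc-binding cysteines and histidines in capitals. ZNF69 and ZNF626 had the most negative log2 fold changes, and ZNF284 and ZNF790 the most positive among C2H2 genes, though none passed the test. The fingers lie at chr19:11905061-11905141 on the plus strand, chr19:20625190-20625270 on the minus strand, chr19:44086091-44086171 on the plus strand and chr19:36819582-36819662 on the minus strand, each inside 1 coding exon.
ZNF69: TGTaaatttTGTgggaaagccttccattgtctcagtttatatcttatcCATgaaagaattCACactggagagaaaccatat
ZNF626: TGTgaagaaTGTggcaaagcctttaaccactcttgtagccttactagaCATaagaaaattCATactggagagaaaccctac
ZNF284: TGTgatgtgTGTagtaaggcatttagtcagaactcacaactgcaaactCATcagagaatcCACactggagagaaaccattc
ZNF790: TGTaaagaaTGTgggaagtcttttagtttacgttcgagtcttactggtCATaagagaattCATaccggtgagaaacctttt
The 4 fingers matched each other at 48 to 58 of 81 bases (59.3% to 71.6%), with ZNF626 and ZNF790 the closest pair. The bases after the last histidine codon form the linker to the next finger. Over the coding sequences of the 153 genes, the C2H2 pattern occurred 12 times in the median gene. Without ZFP36, which had no match, the number ran from 1 in ZNF428 to 31 in ZNF91.

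IGFBP2 itself was at 93.5, 87.3 and 136 CPM in the control libraries and at 566, 1176 and 498 CPM in the overexpression libraries, with no overlap. Reads on the listed genes ranged from 2497353 to 4579587 per library. The 12 epithelial and basal markers of the cell line were all listed. At an adjusted p under 0.05 (limma), 0 of 12 were called, beside 0.629% of all genes. PTPRC, CD3E, CD68, PECAM1 and VWF, which mark leukocytes and endothelium, were not among the listed genes, nor were ESR1 and PGR. ERBB2 was listed, at 15.8 to 37.0 CPM in control and 16.8 to 24.0 CPM in overexpression libraries. Of 5 stromal markers only COL1A1 was listed, at 12.2 to 27.5 CPM in control and 9.36 to 15.8 CPM in overexpression libraries.

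No zinc finger gene of chromosome 19 passed the test between the groups. At an adjusted p under 0.05 (limma over all 10487 genes, Benjamini-Hochberg adjustment), 0 of 153 differed, beside 66 of all genes (0.629%). At an unadjusted p under 0.05, 20 of 153 did (13.1%), beside 13.0% of all genes. Of these 20, 13 were higher and 7 lower in overexpression cells, beside 6.88% and 6.12% of all genes. The libraries of the groups did not overlap for 10 genes that were higher (6.54%) and 9 that were lower (5.88%), beside 9.43% and 8.61% of all genes. In this fit the share at an unadjusted p under 0.05 thus lay near that of the whole table. With a mean-variance trend or limma voom it lay below that of all genes. The share without overlap, 12.4% in either direction, lay below the 18.0% of all genes. With upper quartile scaling the genes without overlap were 10 higher and 5 lower of 153, and the share of all genes is not given for that setting. The median log2 fold change was 0.036 for the 153 genes, with 86 above and 67 below 0, and 9.8e-05 for all genes. Together they took up 2497, 2499 and 2631 CPM in control libraries 1, 2 and 3, and 2619, 2628 and 2666 CPM in overexpression libraries 1, 2 and 3, so the summed level of the family overlapped between the groups.

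**Figure D1:**
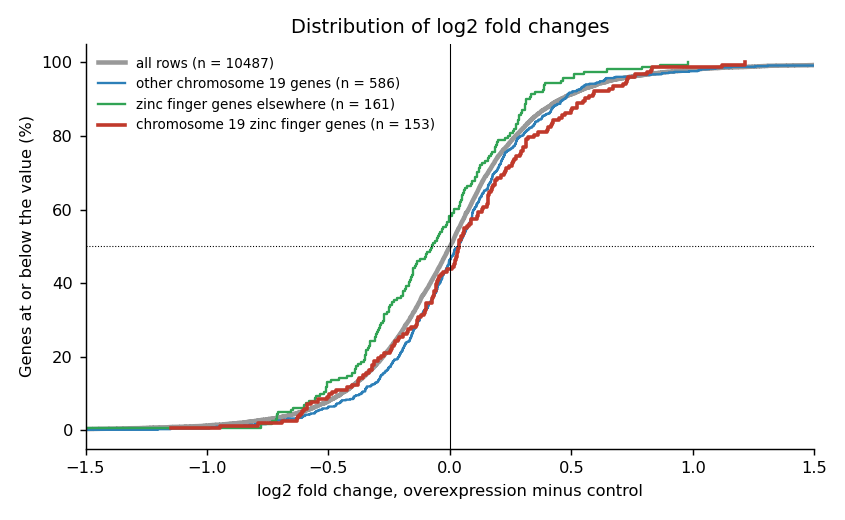
Cumulative distribution of log2 fold changes (horizontal axis, overexpression minus control; vertical axis, percent of genes at or below the value) for 153 zinc finger genes of chromosome 19, 161 elsewhere, 586 other chromosome 19 genes and all 10487 genes. The curve of the chromosome 19 zinc finger genes crosses 50% at 0.036 and that of zinc finger genes elsewhere at -0.08.

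Zinc finger genes of the same naming on other chromosomes, of which 161 of 283 were listed, had a median log2 fold change of -0.08, and 67 of them were above 0. At an unadjusted p under 0.05, 4 were higher (2.48%) and 14 lower (8.70%), beside 6.88% and 6.12% of all genes. The other 586 protein-coding genes of chromosome 19 had a median of 0.034, with 35 higher (5.97%) and 22 lower (3.75%) at that threshold. After adjustment 1 of these 586 was called, beside 0.629% of all genes. The differences between these sets were not tested.

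Zinc finger genes were low, with a median of 9.45 CPM against 30.6 CPM for all genes, and 80 of the 153 had a mean of at most 10 CPM. The median gene was covered by 25 to 46 reads per library and the lowest by 2 to 5. The standard error of a log2 fold change had a median of 0.25 (0.17 to 0.54), beside 0.22 for all genes, and a gene with the median error would have needed a log2 fold change of 1.42 to pass. For 102 genes the 95% interval of the difference lay within a log2 fold change of 1 either way, and for the remaining genes the interval held differences of that size.

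The authors' filter, a mean over 5 CPM in at least 1 group, also shaped the extremes. Control means of 14 genes were at or under 5 CPM, so that these entered through the overexpression group and had to be higher there, and 8 genes entered through the control group only and had to be lower. Of the 10 largest positive differences 7 were among those 14, and of the 10 largest negative differences 4 were among those 8. Over the 131 genes above 5 CPM in both groups, the median log2 fold change was 0.027, with 10 higher and 5 lower at an unadjusted p under 0.05. Of all genes, not limited in this way, 6.88% were higher and 6.12% lower at that threshold.

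The largest positive difference was in ZFP36, which meets the naming rule but is a different kind of protein: tristetraprolin, whose CCCH zinc fingers bind AU-rich elements in mRNA and promote decay. ZFP36 (ENSG00000128016, chr19:39406847-39409412, GRCh38) was at 3.55, 1.39 and 2.83 CPM in control libraries and at 6.24, 7.75 and 7.23 CPM in overexpression libraries. All overexpression libraries were above all control libraries, and the values rest on 5 to 24 reads per library. The log2 fold change was 1.21 (standard error 0.26, 95% interval 0.64 to 1.79), and the adjusted p from limma of 0.0933 was the lowest of the 153. ZFP36 was among the genes that entered through the overexpression group only.

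Among C2H2 genes, ZNF284, a KRAB gene of the long arm, had the largest positive difference. ZNF284 was at 1.11, 1.11 and 3.64 CPM in control libraries and at 6.24, 3.23 and 5.91 CPM in overexpression libraries, from 4 to 18 reads in any library. It entered the table through the overexpression group only. Control library 3 was above overexpression library 2, so the groups overlapped, and the log2 fold change was 1.12 (standard error 0.35, adjusted p = 0.231, limma). ZNF568, whose mouse counterpart represses a placental transcript of Igf2, was better covered. ZNF568 was at 9.77, 11.1 and 10.9 CPM in control libraries and at 18.3, 14.9 and 21.4 CPM in overexpression libraries. The groups did not overlap, and the log2 fold change was 0.71 (standard error 0.20, adjusted p = 0.184, limma). The other 7 of the 10 largest positive differences were ZNF790 (0.83), ZNF404 (0.83), ZNF615 (0.81), ZNF256 (0.76), ZNF792 (0.73), ZNF529 (0.73) and ZNF180 (0.72) in log2 fold change, and in each of these 7 the groups overlapped.

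The largest negative difference was in ZNF69, a KRAB gene of the short arm. ZNF69 was at 9.77, 7.79 and 14.2 CPM in control libraries and at 4.68, 7.75 and 1.64 CPM in overexpression libraries. The groups were separate by the gap between 7.79 and 7.75 CPM, and overexpression library 3 held 5 reads. ZNF69 entered the table through the control group only. The log2 fold change was -1.15 (standard error 0.41, adjusted p = 0.289, limma). Of the 100-base windows in the last 500 bases of ZNF440, 4.24% also occur in ZNF69, so their reads cannot be fully told apart, and ZNF440 had a log2 fold change of -0.63.

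ZNF626 was at 5.77, 8.07 and 8.90 CPM in control libraries and at 1.95, 4.84 and 3.94 CPM in overexpression libraries. ZNF626 also entered through the control group only. The groups did not overlap, and the log2 fold change was -0.95 (standard error 0.28, adjusted p = 0.219, limma). ZNF91, which binds and silences SVA retrotransposons and has the longest array of fingers here, was at 14.4, 15.3 and 6.87 CPM in control libraries and at 8.97, 4.84 and 5.58 CPM in overexpression libraries. Control library 3 lay below overexpression library 1, so the groups overlapped, and the log2 fold change was -0.79 (adjusted p = 0.340, limma). Both genes lie in the same cluster near the centromere. The remaining genes of the 10 most negative were ZNF784 (-0.69), ZNF561 (-0.63), ZNF675 (-0.62), ZNF708 (-0.61), ZNF585A (-0.60) and ZNF44 (-0.59) in log2 fold change. Of these 6, the groups did not overlap in ZNF784 and ZNF44. ZNF675 encodes an inhibitor of TRAF6 signalling.

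The highest mean levels were those of ZNF428, ZNF791 and ZNF146. ZNF428, with a single match to the finger pattern, was at 370, 388 and 480 CPM in control libraries and at 465, 493 and 451 CPM in overexpression libraries, with a log2 fold change of 0.19 (95% interval -0.22 to 0.61). Its groups overlapped, and with 1187 to 1666 reads per library it was the best covered of the 153. ZNF791, a KRAB gene, followed with 68.0 ± 3.89 CPM in control and 66.9 ± 12.1 CPM in overexpression cells (SD, n = 3 in each group). ZNF146, a protein made almost wholly of fingers, had 69.5 ± 13.5 and 62.5 ± 1.03 CPM (SD, n = 3 in each group). The 95% interval of the log2 fold change was -0.48 to 0.40 for ZNF791 and -0.58 to 0.31 for ZNF146.

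**Figure D2:**
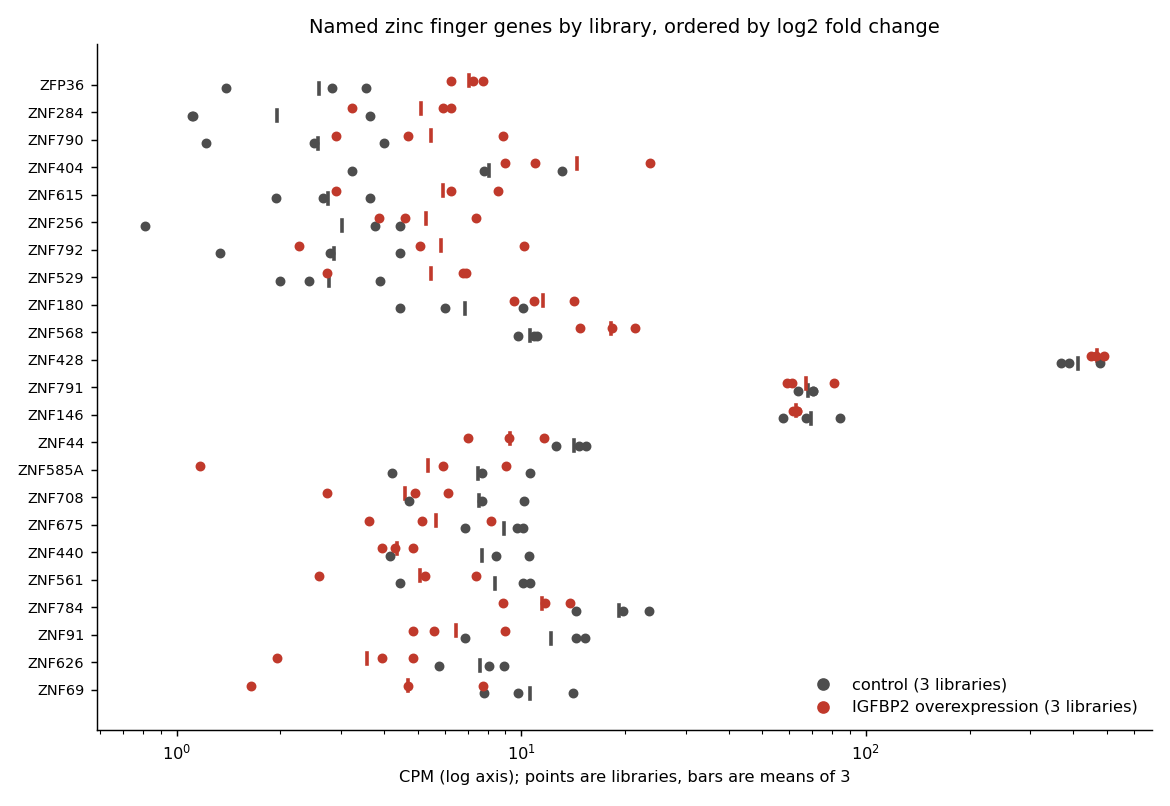
CPM (log axis) of the named zinc finger genes in each library, with control in grey and IGFBP2 overexpression in red. Points are libraries, short bars are means of 3, and genes are ordered by log2 fold change from ZNF69 (-1.15, bottom) to ZFP36 (1.21, top); in most genes the points of the groups overlap.

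Along the chromosome, genes separated by at most 1 Mb were taken as a cluster. This gave 8 clusters with at least 3 listed genes, lettered A to H from the short arm to the end of the long arm, which held 146 of the 153 genes. Cluster A lies at chr19:7069703-9793180, B at chr19:11483427-12640098, C at chr19:19668796-24129968, D at chr19:34677639-34964229, E at chr19:36182276-37817300, F at chr19:43525497-45076478, G at chr19:51571283-53580269 and H at chr19:55476617-58481230 (GRCh38). The share of annotated genes that were listed was lowest in cluster C (18 of 37, 48.6%) and highest in D (4 of 5, 80.0%) and E (23 of 29, 79.3%). Cluster H was the largest, with 38 of 60 listed, followed by G with 26 of 40, B with 14 of 26, F with 13 of 24 and A with 10 of 16.

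**Figure D3:**
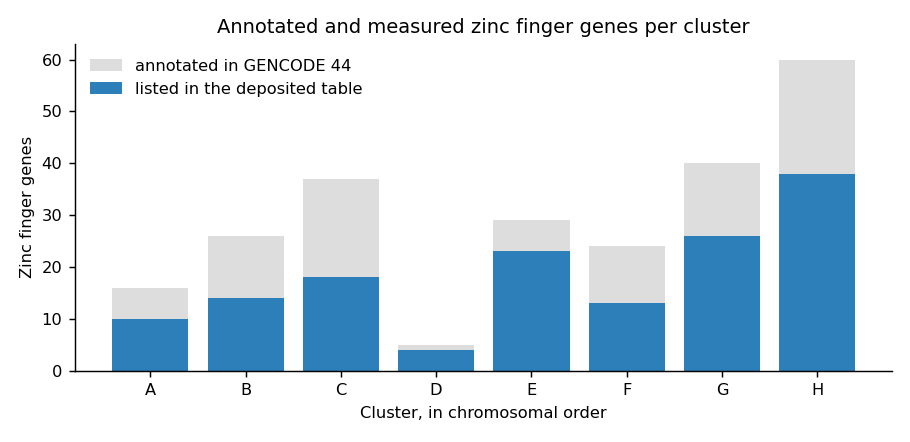
Number of zinc finger genes (vertical axis) in each cluster of chromosome 19 in chromosomal order, with genes annotated in GENCODE 44 in grey and those listed in the deposited table in blue. Cluster C has 18 of 37 listed and cluster E 23 of 29.

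Cluster C, next to the centromere, had the lowest median log2 fold change and cluster F, on the long arm, the highest. In cluster C the median was -0.26, and 13 of 18 genes were below 0. In cluster F it was 0.21, and 11 of 13 genes were above 0. The medians of the other clusters were -0.02 in A, 0.03 in B, 0.15 in D, 0.07 in E, -0.02 in G and 0.07 in H. No gene of any cluster was called. Part of these counts was fixed by the filter: ZNF486, ZNF626 and ZNF708 of cluster C entered through the control group only, and ZNF284 of cluster F through the overexpression group only. Over the genes above 5 CPM in both groups, the median was -0.21 in cluster C, with 10 of 15 genes below 0, and 0.20 in cluster F, with 10 of 12 above 0.

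The mean level of the genes of each cluster was also taken in each library, as the deviation from each gene's mean over all 6 libraries. In cluster C the mean deviation was 0.04, 0.10 and 0.29 in control libraries 1, 2 and 3, and -0.21, -0.16 and -0.05 in overexpression libraries 1, 2 and 3. In cluster F it was -0.13, -0.26 and -0.17 in control libraries and 0.18, 0.12 and 0.26 in overexpression libraries. These values did not overlap between the groups in C and F, and they overlapped in A, B, D, E, G and H. Over the genes above 5 CPM in both groups, control libraries ran from -0.003 to 0.25 and overexpression libraries from -0.17 to -0.03 in C, and from -0.21 to -0.06 and from 0.12 to 0.22 in F. All these values are descriptions without a test, since genes of a cluster are not replicates and C and F were picked out of 8 after their values were seen.

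**Figure D4:**
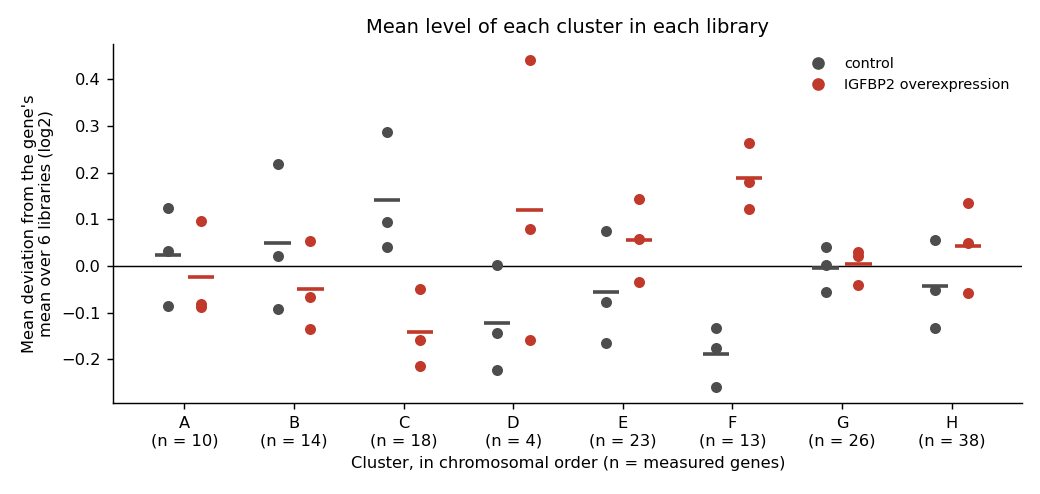
Mean deviation (log2, vertical axis) of the zinc finger genes of each cluster from their own means over 6 libraries, with control libraries in grey, overexpression libraries in red and bars at the mean of 3. Libraries of the groups are apart in cluster C (control 0.04 to 0.29, overexpression -0.21 to -0.05) and cluster F (control -0.26 to -0.13, overexpression 0.12 to 0.26).

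In cluster F, 5 of the 13 genes were higher at an unadjusted p under 0.05, namely ZNF283, ZNF284, ZNF224, ZNF180 and ZNF296, and none was lower. The share of 38.5% stands beside 6.88% of all genes that were higher, in a cluster picked after its values were seen. ZNF284 had to be higher to be listed, and without it the count was 4 of 12. ZNF224, a KRAB protein known to repress the aldolase A gene, was at 8.44, 7.51 and 10.9 CPM in control libraries and at 15.2, 13.2 and 12.2 CPM in overexpression libraries. ZNF296 was at 12.7, 9.46 and 11.3 CPM in control and at 19.1, 18.4 and 13.8 CPM in overexpression libraries. Both were without overlap, as was ZNF283 (at most 13.3 CPM in control and at least 14.4 CPM in overexpression libraries), and their log2 fold changes were 0.55, 0.57 and 0.47. ZNF155 and ZNF45, between ZNF404 and ZNF284, had log2 fold changes of -0.03 and -0.07. The higher values were therefore not shared by every gene of the cluster. In 3.49% of its windows ZNF283 shares sequence with MPP4.

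Between the zinc finger genes of cluster F lie 16 other listed protein-coding genes, of which 12 had a log2 fold change above 0, with a median of 0.31. At an unadjusted p under 0.05, 4 of the 16 were higher, namely CLPTM1, NECTIN2, PLAUR and RELB, and none was lower. Of all genes 6.88% were higher at that threshold. Among them PLAUR, the urokinase receptor, was at 59.2 ± 23.9 CPM in control and 128 ± 22.2 CPM in overexpression cells, and RELB, an NF-κB subunit, at 33.2 ± 13.0 and 58.5 ± 9.10 CPM (SD, n = 3 in each group). Neither passed the test (adjusted p = 0.141 and 0.290, limma). Whether the values of these neighbours bear on those of the zinc finger genes was not tested. Cluster C contains no other listed protein-coding gene.

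In cluster C, ZNF626 and ZNF91 were lower at an unadjusted p under 0.05, 11.1% of its genes beside 6.12% of all genes. ZNF626 had to be lower to be listed, and over the genes above 5 CPM in both groups the count was 1 of 15. ZNF675 and ZNF708 were also among the 10 largest negative differences, and ZNF708 likewise had to be lower. ZNF93, which silences L1 retrotransposons, was at 9.10, 9.74 and 15.8 CPM in control libraries and at 10.9, 8.39 and 4.27 CPM in overexpression libraries. These overlapped, with a log2 fold change of -0.54. ZNF714, the most abundant gene of the cluster, was at 40.7 ± 4.71 CPM in control and 42.7 ± 7.48 CPM in overexpression cells (SD, n = 3 in each group), a log2 fold change of 0.06. The largest value above 0 in the cluster was 0.42, in ZNF738.

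**Figure D5:**
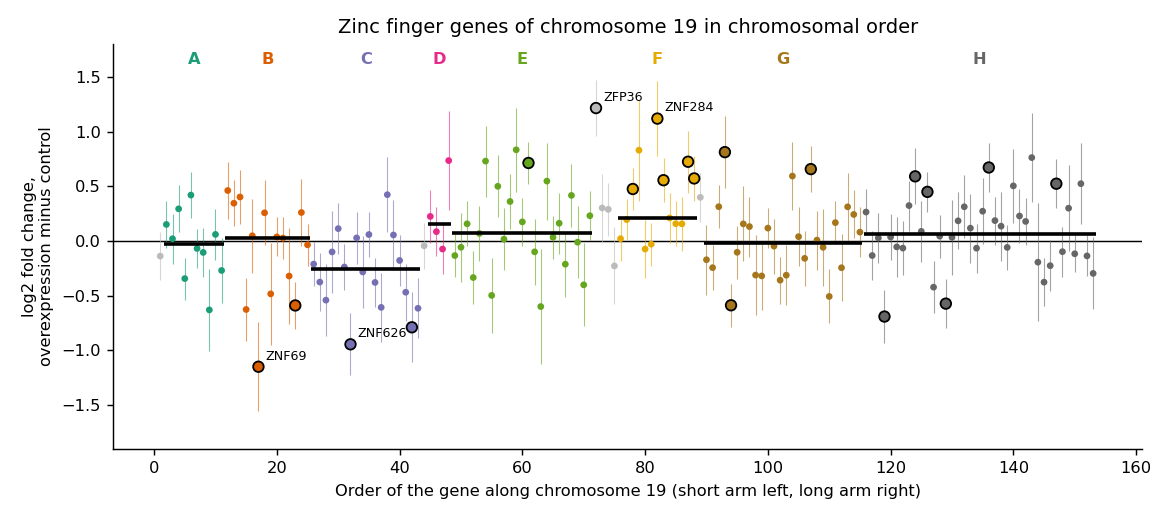
Log2 fold change (vertical axis, with standard error bars) of the 153 zinc finger genes in their order along chromosome 19 (horizontal axis), coloured by cluster A to H. Outlined points have an unadjusted p under 0.05, grey points lie outside the lettered clusters, and black lines are cluster medians, lowest in C (-0.26) and highest in F (0.21).

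In clusters G and H, 3 of 26 (11.5%) and 6 of 38 genes (15.8%) were past the unadjusted threshold in either direction, near the 13.0% of all genes. In G, ZNF160 and ZNF615 were higher and ZNF432 lower at an unadjusted p under 0.05. ZNF615 had to be higher to be listed. Over the genes of G above 5 CPM in both groups, 1 of 24 was higher and 1 was lower. ZNF160 was at 5.55, 8.62 and 6.87 CPM in control and at 10.5, 10.7 and 13.5 CPM in overexpression libraries, without overlap. In H, ZNF550, ZNF582, ZFP28 and ZNF274 were higher and ZNF784 and ZNF264 lower. ZNF264 was at 21.5, 34.5 and 34.4 CPM in control and at 19.5, 17.8 and 21.4 CPM in overexpression libraries, without overlap and with a log2 fold change of -0.57. In cluster B both genes at that threshold, ZNF69 and ZNF44, were lower, 14.3% of its genes beside 6.12% of all genes. ZNF69 had to be lower to be listed, and over the genes above 5 CPM in both groups the count was 1 of 10. In E the only one was ZNF568, which was higher (4.35%, beside 6.88% of all genes), and in A and D there was none.

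By protein features, 117 genes matched a KRAB pattern and had a median log2 fold change of 0.033, with 9 higher and 6 lower at an unadjusted p under 0.05 (12.8%, beside 13.0% of all genes). The 35 C2H2 genes without a match had a median of 0.058, with 3 higher and 1 lower (11.4%). The pattern is narrow, and no match does not show that a protein lacks the domain. KRAB genes were lower in level, with a median of 8.88 CPM against 15.4 CPM. The 86 genes with up to 12 fingers and the 66 with more had medians of 0.036 and 0.033.

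The partners of these proteins were also measured. All 20 genes of a list of KRAB co-repressors and associated chromatin factors were present and 0 were called, while 14 had a log2 fold change below 0 and the median of the list was -0.15. TRIM28 was at 166 ± 29.5 CPM in control and 185 ± 31.6 CPM in overexpression cells, and SETDB1 at 52.6 ± 6.60 and 46.2 ± 7.79 CPM (SD, n = 3 in each group). Their log2 fold changes were 0.16 (95% interval -0.33 to 0.65) and -0.19 (-0.64 to 0.27). At an unadjusted p under 0.05 there were 2 of 20 genes (10%), below the 13.0% of all genes. MORC2, which compacts chromatin with the HUSH complex, was at 35.3, 24.5 and 23.5 CPM in control and at 17.2, 14.8 and 21.7 CPM in overexpression libraries, a log2 fold change of -0.60. ZNF274, a member of cluster H that brings SETDB1 to the 3′ ends of zinc finger genes, was at 15.3, 10.6 and 17.4 CPM in control and at 18.3, 20.3 and 24.0 CPM in overexpression libraries, a log2 fold change of 0.52. Neither overlapped between the groups, and neither passed after adjustment (adjusted p = 0.314 and 0.375, limma). In all, 5 of the 20 genes were without overlap (25%), beside 18.0% of all genes, a difference that was not tested. HDAC1 and ZNF274 were higher, and DNMT1, MORC2 and PPHLN1 lower.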

How the data were processed

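Libraries from 3 control and 3 IGFBP2 overexpression replicates, which the labels call biological replicates, were made with the QuantSeq 3′ kit. Per the study's methods and the submitters' processing notes, the authors used bbduk for trimming, STAR for alignment on hg38, HTSeq 0.9.1 for gene counts and edgeR for normalization; the strand setting is not given in the sources used here. The authors deposited log2(CPM + 1) values of genes with a mean over 5 CPM in at least 1 group. The smallest step of the deposited values in each library gave back whole reads (100% of values within 0.1 read). The deposited log2 values of all 10487 genes were fitted with limma 3.58.1 (R 4.3.3) without a mean-variance trend, two-sided, with Benjamini-Hochberg adjustment. Positions came from GENCODE 44 (10462 identifiers matched). Protein patterns were counted in translated GENCODE coding sequences, in place of a protein table. The fit was tested on simulated data. Named genes were the 10 largest positive and negative differences, the 3 highest levels, the largest change per cluster, ZFP36, TRIM28 and SETDB1; other genes were named after their values were seen. The zinc finger genes and lists were chosen with earlier results of these data known.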

Additional observations from a re-analysis of the deposited data

How the results depend on the processing

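The number of zinc finger genes called was 0 under all 19 alternatives, while calls among all genes ranged from 12 to 160 over the fits. Alternatives that only dropped genes from the list, within the fit used above, could give no other count. The median log2 fold change of the family stayed between 0.017 and 0.057. The count at an unadjusted p under 0.05, added after seeing the data, was 20 of 153, beside 13.0% of all genes. It became 13 of 82 genes with a mean over 10 CPM in at least 1 group, beside 13.6% of all genes. With that mean taken over all libraries it was 8 of 73, beside 13.1%. With a mean-variance trend it was 12 of 153, beside 13.4%, and with limma voom 13 of 153, beside 13.0%. Leaving out each library in turn gave 15 to 20 of 153, beside 9.10% to 13.5% of all genes. The groups did not overlap for 19 of 153 genes, beside 18.0% of all genes. Under the filters on low values this held for 12 of 82 and 9 of 73 genes. With upper quartile scaling it held for 15 of 153, of which 5 in place of 9 were lower. Leaving out each library gave 30 to 42 of 153, since fewer libraries overlap less often. For these alternatives the share of all genes without overlap is not given. The deviations of samples with the same number had correlations of 0.17, -0.06 and 0.08, which were not tested. Whether these samples share more than a number cannot be told from these values. With the replicate number as a block 0 zinc finger genes were called, beside 55 of all genes. In that fit 21 of 153 had an unadjusted p under 0.05, beside 13.7% of all genes.

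Cluster C kept a median below 0 (-0.34 to -0.18) and cluster F above 0 (0.17 to 0.37) under all 19 alternatives. Of these, 1, the genes above 5 CPM in both groups, was added after seeing the data. The 0.17 was the median of 44 genes that a gap of 2 Mb joins into 1 block with F. Gaps of 0.5 and 2 Mb left cluster C with the same 18 genes, so they could not move its median. Nor could the mean-variance trend or the replicate block, which leave log2 fold changes as they are. The medians of A and G changed sign under 6, of B under 4 and of H under 1. Leaving out each library in turn gave medians of 0.22 to 0.37 in F, 0.05 to 0.26 in D and 0.05 to 0.15 in E. ZNF146 ran from -0.261 to 0.0107 in these fits and turned above 0 without control replicate 1. ZNF585A ran from -1.06 to 0.0470 and turned without IGFBP2 overexpression replicate 1. ZNF791 ran from -0.178 to 0.0477 and turned without IGFBP2 overexpression replicates 1 or 2. None of these genes passed the test under any alternative, and the cause was not tested. The remaining named genes kept their direction, but leaving out 1 library moved 14 of the 23 named values by over 1.5 times, among them ZNF69 (-1.54 to -0.68), ZNF404 (0.36 to 1.23), ZNF256 (0.26 to 1.06), ZNF792 (0.29 to 1.18) and ZNF561 (-0.98 to -0.29). Without the genes that share windows of their 3′ end, an alternative added after seeing the data, 0 were called.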
